A study of Mus musculus with 12 samples.

Results

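The genes described here encode the proteasome, and were taken as every gene whose symbol in the array's annotation begins with Psma, Psmb, Psmc, Psmd or Psme followed by a number. The rule found 43 genes on 76 probe sets that name a single gene, out of 12394 genes named in that way. Of these, 42 had a probe set that passed the filter on dim signals (a scaled signal of 100 on at least 3 arrays), and they stood among 9333 genes tested. The exception was Psma8, the testis form of an alpha subunit, whose highest signal on any array was 54.0. Psmc3ip and Psme3ip1 match the rule by their letters only, as they encode partners of other proteins, so counts of subunits below are over 40 genes. Psme2 was not analysed here because its probe set is shared with another gene, and Psmb11, the thymic subunit, has no probe set listed.

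Total RNA of mouse lung was hybridised to 12 Affymetrix 430A arrays in 4 groups of 3. CD-1/ICR mice were Nrf2 wild type (Nrf2+/+, WT) or Nrf2-deficient (Nrf2-/-, KO). They breathed on their own for 2 h (SpV) or were ventilated for 2 h at 30 ml/kg (HVT). The kind of deletion, the age of the mice and whether each array is a separate animal are not given in the sources used here, so p-values measure the spread between these arrays, which may be technical. One array (WT SpV 1) is labelled whole lung and the others left lobe. The comparisons ask how HVT acts in WT and in KO lungs, how KO and WT lungs differ within SpV and within HVT, and whether KO changes the HVT response.

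The proteasome is the machine that degrades proteins tagged with ubiquitin. Its 20S core is a barrel of alpha and beta rings, with proteolytic sites on some beta subunits, and the 19S cap, built from ATPases and non-ATPases, binds, unfolds and feeds in the substrate. In immune cells and under interferon the catalytic beta subunits are replaced by Psmb8, Psmb9 and Psmb10 (the immunoproteasome), which favours peptides for MHC class I, and the PA28 and PA200 activators open the core in place of the cap. Nrf2, encoded by Nfe2l2, and its relative Nfe2l1 are transcription factors that have been linked to the expression of proteasome genes, in oxidative stress and after proteasome inhibition respectively.

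Nfe2l2 had a normalized signal of 2144 to 3298 on the WT arrays and 36.2 to 61.3 on the KO arrays, which fits the labels of all 12. Surfactant and other alveolar type II markers were bright on every array, with a sum of 6 measured genes from 63014 to 88711. The array KO SpV 1 stood apart: its trimmed mean signal as deposited was 73.9 against 182 to 469 on the other 11, and its beta-actin 3'/5' ratio, a measure of RNA integrity, was 8.76 against 1.39 to 3.10. For 20 of the 40 subunits the highest or lowest value was on this array (50% of them, against 46.4% of all genes). For ventilation in KO and for genotype in SpV, the family's counts are therefore also given without it. Most genes named for a comparison that uses KO SpV are given in both ways. The markers of heart muscle, endothelium and alveolar type I cells also differed between genotypes, as given below, and in whole tissue fewer cells of a type and less RNA per cell cannot be told apart.

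Most subunits were expressed at steady levels in every group. Over the 40 subunits the median standard deviation of replicate arrays was 0.18 on the log2 scale, against 0.26 for the 6029 genes with mean signals in the same range and 0.28 for all genes. Psma2, an alpha subunit, was among the steadiest: its normalized signals were 1754, 2139 and 1818 in WT SpV, 1817, 1802 and 1925 in WT HVT, 1709, 2048 and 2069 in KO SpV and 1957, 1938 and 2046 in KO HVT. The highest of these was 1.25 times the lowest. The groups overlapped except in HVT, where every KO array lay slightly above every WT array (log2 difference 0.099). Psmb3, a structural beta subunit, and Psmc4, a 19S ATPase, varied most, Psmb3 by 3.13 times, with 1723, 3431 and 1653 in WT SpV, 2116, 1564 and 1826 in WT HVT, 4889, 1687 and 1828 in KO SpV and 2348, 2279 and 2618 in KO HVT. Its peak was on KO SpV 1, followed by WT SpV 2, so the spread lay within the SpV groups. Psmc4 varied by 3.13 times, from 493 on KO HVT 1 to 1543 on WT SpV 3, and the other arrays of WT SpV had 829.6 and 803.

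**Figure D1:**
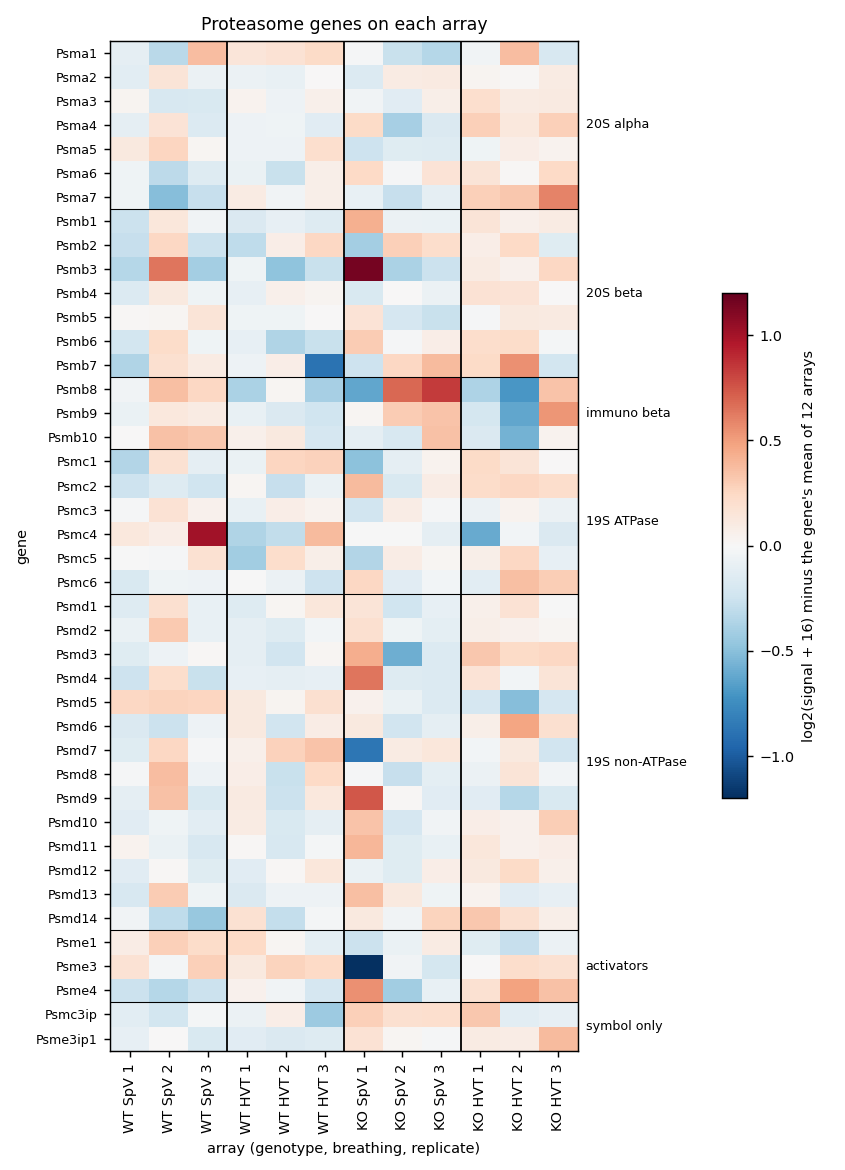
Log2(signal + 16) of the 42 measured genes on each of the 12 arrays, minus the gene's mean over all arrays; rows are genes grouped by their place in the proteasome and columns are arrays in groups of 3. Most cells are pale, and the strongest colours fall on KO SpV 1 (Psmb3, Psmd7, Psme3) and on single arrays of other groups (Psmc4 on WT SpV 3, Psmb7 on WT HVT 3).

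With all 12 arrays, no subunit was called (limma, Benjamini-Hochberg adjusted p under 0.05 over 9333 genes) in any of the 7 contrasts. The share of all genes called was 0.075% for ventilation in WT, 0% for ventilation in KO, 0.332% and 0.739% for KO against WT in SpV and in HVT, 0% for the interaction, 0.107% for ventilation averaged over genotypes and 3.73% for genotype averaged over breathing. Of the 42 measured genes, 0, 2, 5, 5, 0, 1 and 9 had an unadjusted p under 0.05 in these contrasts, where all genes gave 7.97%, 10.6%, 13.7%, 12.8%, 4.89%, 13.3% and 21.3%. The 95% intervals lay within a 2-fold change in either direction for 37 of the 40 subunits for ventilation in WT, 38 for ventilation in KO, 38 for genotype in SpV and 38 for genotype in HVT. A p above the threshold does not show that levels were equal, and smaller changes than these intervals were not resolved with 3 arrays a group.

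**Figure D2:**
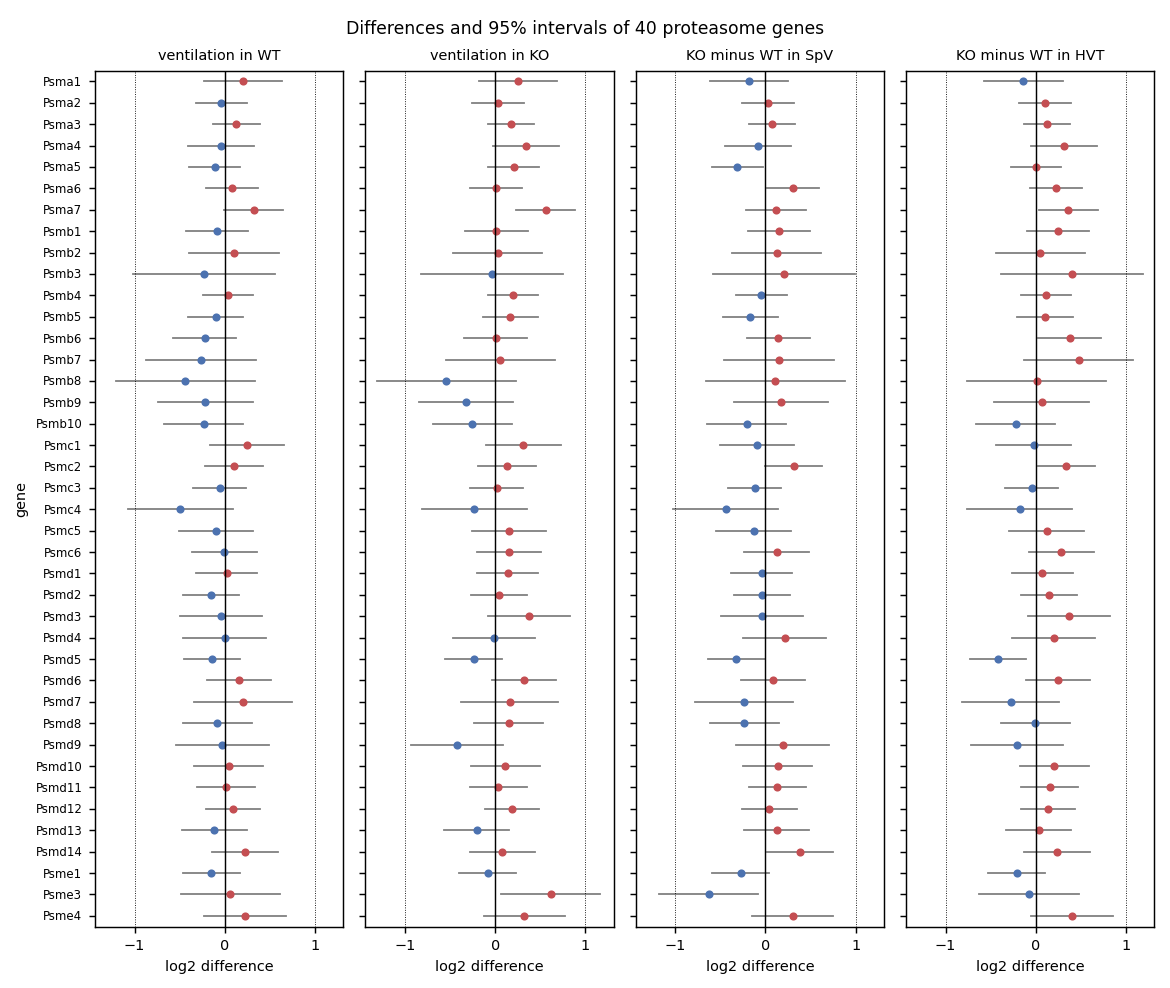
Log2 differences of the 40 subunits with 95% confidence intervals in the 4 comparisons of 2 groups (red above 0, blue below; dotted lines mark a 2-fold change). Nearly all intervals include 0, and those of Psmb8, Psmb3, Psmc4 and Psme3 are among the widest.

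Ventilation in wild-type mice gave no call and a median log2 difference (HVT minus SpV) of -0.032 over the subunits, against -0.036 for all genes; 17 of 40 were higher (44.2% of all genes were). Without overlap between the groups, 2 were higher and 3 lower, where 7.9% and 9.15% of all genes were. In the alpha ring, Psma7 had the smallest p: its signals were 1526, 1106 and 1299 in WT SpV and 1689, 1533 and 1656 in WT HVT, without overlap, a difference of 0.32 ± 0.15 (SE; adjusted p = 0.645). Among constitutive beta subunits, Psmb6, which carries a catalytic site, differed by -0.23 ± 0.16 (adjusted p = 0.836), and Psmb7, another catalytic subunit, by -0.27 ± 0.28. The 19S ATPases Psmc4 and Psmc1 had differences of -0.50 ± 0.27 and 0.25 ± 0.19 (adjusted p = 0.73 and 0.85), and without WT SpV 3 the Psmc4 difference was -0.19. The lid deubiquitinase Psmd14 had 0.23 ± 0.17 (adjusted p = 0.845) and the PA200 gene Psme4 0.23 ± 0.21.

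Ventilation in knockout mice, with all arrays, also gave no call, and the median was 0.096 against 0.0016 for all genes, with 30 of 40 subunits higher (50.2% of all genes were). Without overlap, 5 were higher (6.76% of all genes) and 1 lower (7.53%). With KO SpV 1 left out, 27 were higher (51.8% of all genes), 20 without overlap (23.8%), and 3 were lower without overlap (23.3%), with a median of 0.16 against 0.016. With all arrays the excess over the median gene was 0.080 to 0.094 under quantile normalization, the scaling step only, equal medians and no scaling, and 30, 26, 24 and 5 of the 40 were then higher; with no scaling the median of all genes was itself -0.28. Leaving out KO SpV 1 made it 0.15, 0.073, 0.071 and 0.021 in that order, so its size depends on the normalization. The counts without overlap did so too. Without that array, 18 were higher (25.4% of all genes) and 6 lower (22.6%) with the scaling step only. With equal medians 11 (20.8%) were higher and 8 (27.5%) lower, and with no scaling 0 (0.414%) and 40 (89.0%). Psma7 again had the smallest p, with 1482, 1300.2 and 1461 in KO SpV and 1932, 1981 and 2388 in KO HVT. The groups, at 1414 ± 99.2 and 2100.4 ± 251 (mean ± SD, n = 3), did not overlap, and the difference was 0.56 ± 0.15 (1.48-fold on the log2(signal + 16) scale; adjusted p = 0.255). Averaged over both genotypes it was 0.44 ± 0.11 (adjusted p = 0.103), and the next in that contrast were Psmc1 (0.28 ± 0.13, 0.395), Psmd6 (0.24 ± 0.12, 0.399), Psmb8 (-0.49 ± 0.25, 0.416) and Psmc4 (-0.36 ± 0.19, 0.427). These averages were 0.20 ± 0.12 for Psmc1, 0.28 ± 0.11 for Psmd6 and -0.36 ± 0.20 for Psmc4 without KO SpV 1. Psme3, the PA28 gamma activator, had 0.62 ± 0.25 (adjusted p = 0.413), and its signal on KO SpV 1 was 117 against 279 and 248 on the other arrays of that group. Without that array it was 0.26 ± 0.16. The other small p-values belonged to Psma4 (0.34 ± 0.17, adjusted p = 0.501) of the alpha ring, to Psmd6 (0.32 ± 0.16, 0.526) of the lid and to Psmd9 (-0.42 ± 0.24, 0.559), an assembly chaperone of the base. In the fit without KO SpV 1 Psma4 had 0.52 ± 0.15 (adjusted p = 0.0535), Psmd6 0.42 ± 0.17 (0.144) and Psmd9 -0.16 ± 0.20 (0.656).

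Without KO SpV 1, which leaves 2 arrays in that group and 9189 genes tested, 4 of the 42 genes were called for ventilation in KO (9.52%, against 6.49% of all genes): Psma7, Psmd3 and Psme4 higher and Psmb8 lower. They are named here because they passed in that fit, so they were chosen after their values were seen. Psmd3, a non-ATPase of the lid, had signals of 1160.0, 1233 and 1293 in WT SpV, 1191, 1095 and 1306 in WT HVT, 1742, 852 and 1139.8 in KO SpV and 1613, 1510.0 and 1532 in KO HVT. KO SpV 1 was the highest array of all and KO SpV 2 the lowest, while the 3 KO HVT arrays lay close together (1552 ± 54.3; mean ± SD, n = 3) above every WT array. Its difference was 0.38 ± 0.21 (adjusted p = 0.562) with that array and 0.65 ± 0.15 (adjusted p = 0.0289) without it. Psme4 had 1087, 1024 and 1085 in WT SpV, 1352, 1265 and 1136 in WT HVT, 1913, 971 and 1225 in KO SpV and 1481, 1828 and 1667 in KO HVT. Here too KO SpV 1 was the highest array and KO SpV 2 the lowest, and all KO HVT arrays (1658 ± 173; mean ± SD, n = 3) were above all WT arrays. It differed by 0.33 ± 0.21 (adjusted p = 0.62) with KO SpV 1 and by 0.59 ± 0.15 (adjusted p = 0.0409) without it. For Psma7 the difference without that array was 0.59 ± 0.16 (adjusted p = 0.0468), close to that with it. Averaged over genotypes, Psma7 (0.46 ± 0.11, adjusted p = 0.0264), Psme4 (0.41 ± 0.10, 0.0346) and Psmb8 (-0.73 ± 0.18, 0.031) were called in the same fit, as were 7.03% of all genes.

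Psmb8, the immunoproteasome subunit that replaces Psmb5, had normalized signals of 457, 613 and 565 in WT SpV, 360.3, 482 and 354 in WT HVT, 300.4, 771 and 857 in KO SpV and 362, 284 and 605 in KO HVT. KO SpV 1 lay among the lowest arrays while KO SpV 2 and 3 were the highest of all 12, so the group spanned nearly the whole range. The difference was -0.54 ± 0.36 (adjusted p = 0.628) with all arrays and -1.01 ± 0.27 (2.01-fold lower, adjusted p = 0.042) without KO SpV 1. In WT it was -0.44 ± 0.36 (adjusted p = 0.857). Psmb9 and Psmb10, the other inducible subunits, were lower under ventilation in both genotypes without passing: -0.21 ± 0.24 and -0.24 ± 0.20 in WT, and -0.33 ± 0.24 and -0.25 ± 0.20 in KO. They had -0.43 ± 0.26 and -0.32 ± 0.22 in KO without KO SpV 1. The KO HVT arrays of Psmb9 were spread, at 353, 261 and 601, and the last of these (KO HVT 3) was its highest array of all. The summed signal of 7 of 9 neutrophil markers (Retnlg and Ly6g were not measured) was 5414 on KO SpV 1, 11021 and 21362 on the other arrays of that group, and 2162 to 3069 in KO HVT. In WT it was 4786 to 6991 in SpV and 3583 to 8604 in HVT. The sum of 5 general leukocyte markers was 5029 on KO SpV 1, 9311 and 10969.9 on the other KO SpV arrays and at most 7649 elsewhere. That of 6 macrophage and monocyte markers was 9627, then 21077 and 24413, and 11502 to 15991 in KO HVT. The part of these cells in the Psmb8 result was not tested.

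**Figure D3:**
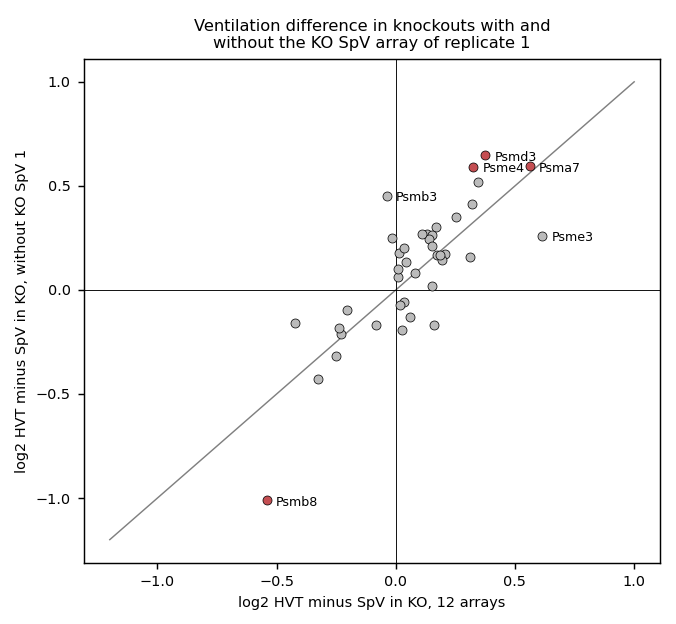
Each point is one of 40 subunits: its log2 difference between HVT and SpV in knockouts with all 12 arrays (horizontal) and without the array KO SpV 1 (vertical), with the line of equal values. Red points (Psma7, Psmd3, Psme4, Psmb8) were called without that array, and none was called with it; Psmb8 moved from -0.54 to -1.01.

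The KO SpV arrays that remain after this step were the brightest of all (trimmed means of 446 and 469) and had the lowest beta-actin ratios (1.52 and 1.39), while KO HVT arrays were dim (182 to 247) with ratios of 2.21 to 3.10. With the beta-actin ratio as a covariate in the same set of arrays, no gene of the family was called for ventilation in KO, and 0 of all genes were. As the ratio did not overlap between KO SpV and KO HVT in that set, this fit could not separate it from ventilation. With only the scaling step Psmb8 and Psmd3 were called (7.1% of all genes), with equal medians Psmb8 alone (7.59%), and with a replicate block Psmd3 alone (4.35%). With probe sets outside the s_at and x_at classes, Psma7, Psmb8 and Psmd3 were called (6.33%). Without any scaling 39 of the 42 were called, and so were 78.5% of all genes. Those 6 combinations were added after the data had been seen. Without KO SpV 1 and with quantile normalization no member was called for ventilation in WT (0.49% of all genes), or for genotype in SpV (1.9%) or in HVT (5.32%). The difference between genotypes in the response to ventilation was not called for any subunit, with or without KO SpV 1; without it the smallest adjusted p was that of Psmd3 (interaction 0.69 ± 0.21, adjusted p = 0.169), with 0.892% of all genes called. With all arrays the smallest p-values for the interaction were those of Psma5 (0.32 ± 0.18), Psma4 (0.39 ± 0.24), Psme3 (0.56 ± 0.36), Psmd3 (0.41 ± 0.30) and Psmb5 (0.27 ± 0.20), with adjusted p-values of 0.9998 for all of them. On leaving out KO SpV 1, Psma5 had 0.28 ± 0.18, Psma4 0.56 ± 0.20, Psme3 0.20 ± 0.22 and Psmb5 0.40 ± 0.17.

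**Figure D4:**
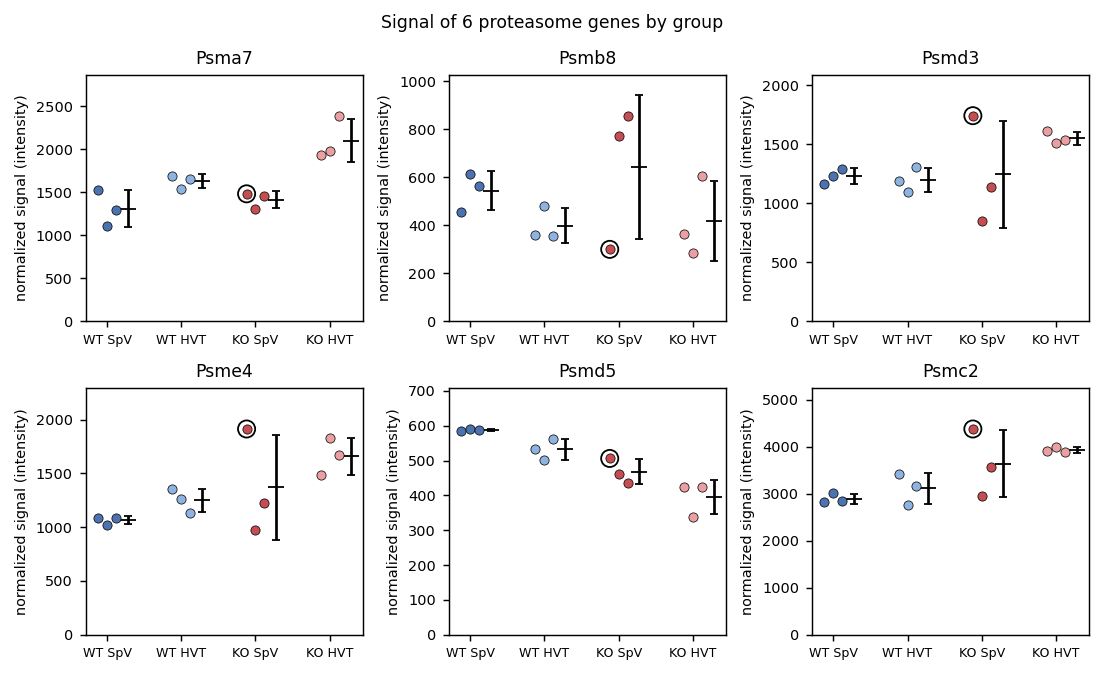
Normalized signal (intensity, linear axis from 0) of Psma7, Psmb8, Psmd3, Psme4, Psmd5 and Psmc2 on the 3 arrays of each group; bars are means ± SD and the ringed point is KO SpV 1. For Psmd5 every KO array lies below every WT array of the same breathing, and for Psmd3, Psme4 and Psmb8 the ringed array lies away from the other 2 of its group.

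For genotype, Psmd5, whose product is a chaperone of 19S base assembly, had the smallest p of the family in HVT and on average over breathing, and the fifth in SpV with all arrays. Its signals were 584, 590.5 and 588 in WT SpV, 532, 502 and 562 in WT HVT, 506, 461 and 435 in KO SpV and 423, 338 and 423 in KO HVT. The group means were 587 ± 3.37, 532 ± 29.9, 467 ± 35.9 and 395 ± 49.2 (± SD, n = 3) in that order. All KO arrays were below all WT arrays within each kind of breathing, KO SpV 1 included. The difference (KO minus WT) was -0.32 ± 0.14 in SpV (adjusted p = 0.354), -0.42 ± 0.14 in HVT (0.233) and -0.37 ± 0.10 on average (0.0622; 1.29-fold lower). Without KO SpV 1 it was -0.38 ± 0.15 in SpV (0.225), and the average passed, at -0.40 ± 0.10 (adjusted p = 0.0329; 6.83% of all genes were called). Over 25 alternatives the adjusted p of the average ran from 0.00377 to 0.277. The starts of Psmd5 and Nfe2l2 lie 40.8 Mb apart on chromosome 2 (RefSeq, GRCm38.p6), and sequence carried along with the deletion cannot be told apart from the genotype here.

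In SpV 22 of 40 subunits were higher in KO (48.6% of all genes were), and without overlap 1 was higher (8.91%) and 4 were lower (9.5%). The median was 0.060 against -0.013 for all genes. When KO SpV 1 was left out, 19 were higher (46.3% of all genes), 4 of them without overlap (17.8%), and 8 were lower without overlap (21%), with a median of -0.014 against -0.029. With all arrays the other small p-values of this comparison were those of Psme3 (-0.63 ± 0.25, adjusted p = 0.306; -0.27 ± 0.16 without KO SpV 1), Psma5 (-0.31 ± 0.13, 0.314), Psma6 (0.30 ± 0.13, 0.348) and Psmd14 (0.38 ± 0.17, 0.35). Leaving out KO SpV 1, Psma5 had -0.28 ± 0.14 (0.323), Psma6 0.24 ± 0.14 (0.405) and Psmd14 0.38 ± 0.18 (0.32). Psma5 and Psma6 belong to the same ring, and with the chosen probe sets one was lower and the other higher: Psma6 had 4119.9, 3425 and 3839.8 in WT SpV and 5033, 4222 and 4792 in KO SpV, and Psma5 2101, 2315 and 1956 and 1624, 1743 and 1736. Another passing set of Psma5, 1424681_a_at, had the other sign (0.086), so the contrast between the genes depends on the probe set. The other passing sets of Psma6 gave 0.21 and 0.11. In HVT, Psma7 (0.36 ± 0.15, adjusted p = 0.338), Psmb6 (0.38 ± 0.16, 0.35), Psmc2 (0.34 ± 0.15, 0.357) and Psme4 (0.40 ± 0.21, 0.446) were next to Psmd5. The largest difference among constitutive beta subunits was that of Psmb7 in HVT (0.47 ± 0.28, 0.501), and among 19S ATPases in SpV that of Psmc4 (-0.44 ± 0.27, 0.502; -0.46 ± 0.30 without KO SpV 1). On average over breathing, Psma6 had 0.27 ± 0.094 (adjusted p = 0.132) and Psmd14 0.31 ± 0.12 (0.162). Psme1, the PA28 alpha activator, had -0.24 ± 0.10 (adjusted p = 0.195). The averages without KO SpV 1 were 0.23 ± 0.091, 0.31 ± 0.12 and -0.20 ± 0.096. Of the inducible subunits, Psmb8, Psmb9 and Psmb10 had 0.0085 ± 0.36, 0.064 ± 0.24 and -0.22 ± 0.20 in HVT.

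In HVT 29 of 40 subunits were higher in KO (51.9% of all genes were) and 13 did not overlap with WT in that direction, where 12.4% of all genes did so; 1 was lower without overlap (12.9% of all genes). The median was 0.12 against 0.015 for all genes. With the scaling step only, equal medians and no scaling the count of higher subunits was 26, 20 and 0, but with no scaling the median of all genes was itself -0.77. Counted as above the median gene, they were 27 with quantile normalization and then 24, 24 and 19. The excess of the subunits' median over that of all genes was 0.10, then 0.037, 0.036 and -0.013. Without overlap, 12 (14% of all genes), 8 (10.2%) and 0 (0.182%) were higher and 2 (12.5%), 2 (16.1%) and 21 (60.1%) lower under those 3 settings, so the family's shift in HVT depends on the normalization. In these groups the beta-actin ratio did not overlap either (1.53 to 1.99 in WT, 2.21 to 3.10 in KO). Markers of heart muscle were higher in KO HVT for 7 of 7 genes (summed signal 25402 to 40274 in WT and 52029 to 62153 in KO). Of these 7, 4 were called, where 0.739% of all genes were. Those of alveolar type I cells were lower in KO HVT for 6 of 6 (27786 to 40175 in WT and 14559 to 19654 in KO). In SpV the heart muscle sum was 26466 to 36519.8 in WT and 42882 on KO SpV 1, 46889 and 52701 on the other KO arrays. The sum of 8 endothelial markers was 22184 to 27631 in WT SpV, 8312 on KO SpV 1, and 15914 and 20006 on the other KO SpV arrays. It was 14005 to 23557 in WT HVT and 8242 to 10501 in KO HVT. Kdr, 1 of the 8, went the other way in HVT, with means of 2389 in WT and 2809 in KO, and the groups overlapped. Its highest array was KO SpV 1 (3853). The means of the other endothelial markers were lower in KO HVT than in WT HVT. The part of RNA quality and of these cells in the genotype comparisons was not tested.

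Psmc2, a 19S ATPase, depended on the probe set. The set chosen for its brightness, 1435859_x_at, whose name marks probes that can bind other transcripts, gave 2824, 3015, 2845, 3422, 2766 and 3169.8 on the WT arrays and 4383, 2963, 3583, 3910.1, 3999 and 3899 on the KO arrays, with an average difference of 0.33 ± 0.10 (adjusted p = 0.101). The other set, 1426611_at, gave 657, 1014, 687, 876, 902 and 833 on the WT arrays and 1730.3, 1511, 1559, 1772, 1423 and 1487 on the KO arrays. Every KO array was above every WT array, KO SpV 1 among them. In a fit that took probe sets outside the s_at and x_at classes where a gene has one, its difference was 1.04 ± 0.17 in SpV (adjusted p = 0.0296; 0.246% of all genes called), 0.82 ± 0.17 in HVT (0.0607) and 0.93 ± 0.12 on average (0.00248; 1.91-fold). With KO SpV 1 left out these differences were 0.98 ± 0.19 (adjusted p = 0.0217; 1.83% of all genes called), 0.83 ± 0.17 (0.0157; 5.37%) and 0.90 ± 0.12 (0.00168; 6.71%), and for the brighter set the average was 0.25 ± 0.087 (0.103). With all arrays the ventilation difference of 1426611_at was 0.17 ± 0.17 in WT and -0.040 ± 0.17 in KO. Of 17 subunits with several passing probe sets, the signs of the sets differed for 7 in each of the 2 ventilation contrasts, for 8 in genotype in SpV and for 7 in genotype in HVT. For Psmc4 the chosen set gave -0.50 under ventilation in WT and the other set 0.14. The same 2 sets gave -0.44 and 0.15 for genotype in SpV, and -0.36 and 0.16 for ventilation averaged over genotypes. For Psme3 the chosen set gave 0.62 for ventilation in KO and -0.63 for genotype in SpV. Its other passing set, 1418079_at, gave -0.16 and -0.042. For Psmd6 the chosen set gave 0.32 for ventilation in KO and 0.24 for ventilation averaged over genotypes. The second passing set of Psmd6, 1423697_at, gave 0.029 and -0.030. For Psma7 both sets were higher in KO HVT than in KO SpV, by 0.56 and 0.17. The chosen set of Psmc6 gave -0.0060 for ventilation in WT and 0.15 in KO. Another passing set, 1417770_s_at, gave 0.58 and 0.61. Its signals were 590, 429 and 619 in WT SpV and 814, 750 and 877 in WT HVT, without overlap. A dim set, 1417769_at, with at most 180 on any array, gave 0.995 and 0.66. For both of these sets KO SpV 1 was the lowest array, at 337 and 19.5.

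**Figure D5:**
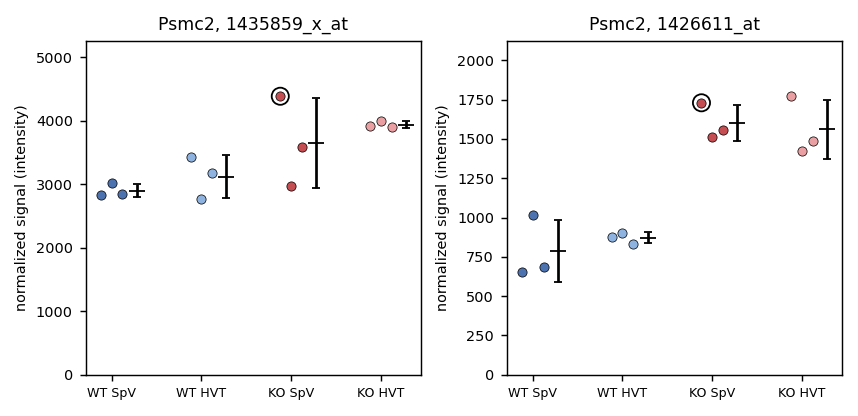
Normalized signal of the 2 passing probe sets of Psmc2 on the 3 arrays of each group (means ± SD; KO SpV 1 ringed; both axes start at 0). In the right panel all 6 KO arrays lie above all 6 WT arrays, and in the left panel KO SpV overlaps with WT.

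Nrf2 binds the antioxidant response element, whose core is TGACNNNGC. Promoters of 34 of the 40 subunits (250 bases before to 50 after the annotated start, RefSeq, GRCm38.p6) were searched on both strands. The core was found in 6 of the 34 (17.6%), against 14% of the genes in the whole table. A match describes the letters and is not a binding site. The windows around the 6 matches are shown to let the positions be compared with the genotype values, 5′ to 3′ along the gene's strand, with the core (or its reverse complement in Psmc6, Psmd12 and Psme4) in capitals.
Psmb5, chr14:54618024-54618052, strand -: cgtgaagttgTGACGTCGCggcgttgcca
Psmb6, chr11:70525338-70525366, strand +: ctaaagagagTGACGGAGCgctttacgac
Psmd9, chr5:123228149-123228177, strand +: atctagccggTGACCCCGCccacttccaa
Psme4, chr11:30771758-30771786, strand +: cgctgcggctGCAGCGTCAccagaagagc
Psmc6, chr14:45329587-45329615, strand +: ccagccagtaGCTAAGTCAggcattgctc
Psmd12, chr11:107479278-107479299, strand +: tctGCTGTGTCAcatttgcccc
The core starts 47 bases before the gene start in Psmb5, 9 in Psmb6, 31 in Psmd9, 7 in Psme4, 227 in Psmc6 and 247 in Psmd12. On average over breathing these genes differed by -0.033 (Psmb5), 0.26 (Psmb6), -0.0096 (Psmd9), 0.35 (Psme4), 0.20 (Psmc6) and 0.089 (Psmd12), KO minus WT, with none called. Psmd5 and Psmc2, with the smallest p-values of the genotype average, are not among them, while Psmb6 and Psme4 are among the genes named above for HVT. The averages of the 6 genes include KO SpV 1, which was the highest of all arrays for Psmb5, Psmb6, Psmd9 and Psme4. Without it the mean signals in WT SpV and KO SpV were 1602 and 1299 (Psmb5), 1210.2 and 1245 (Psmb6) and 340.4 and 317.5 (Psmd9). They were 1069.6 and 1102 for Psme4, 1191 and 1202 for Psmc6, and 852 and 891 for Psmd12.

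The genes around the proteasome were read from lists that were chosen with earlier results of these data known. Of 12 measured genes for assembly and associated factors, none was called with all arrays in any comparison of 2 groups; without KO SpV 1 the proteasome deubiquitinase Usp14, 1 of the 12 (8.33%, against 6.49% of all genes), was called higher under ventilation in KO, with signals of 1651, 667 and 724 in KO SpV and 1112, 1349 and 1229 in KO HVT and a difference of 0.81 ± 0.17 (adjusted p = 0.0193). That call too was lost with the beta-actin ratio as a covariate, where 0 genes were called and the ratio could not be separated from ventilation. With all arrays Psmg2, an assembly chaperone, had -0.46 ± 0.16 for genotype in SpV (adjusted p = 0.253), and -0.33 ± 0.16 without KO SpV 1. None of 5 measured genes of the Nfe2l1 route was called with all arrays; Nfe2l1 itself had -0.27 ± 0.19 under ventilation in WT and -0.40 ± 0.19 in KO (adjusted p = 0.828 and 0.485), and -0.51 ± 0.19 in KO without KO SpV 1. None of 8 ubiquitin shuttles and segregase cofactors was called with all arrays, and Nsfl1c had -0.45 ± 0.17 for genotype in SpV (adjusted p = 0.263), and -0.58 ± 0.16 without KO SpV 1. The ubiquitin genes and E1 enzymes of a further list matched no passing probe set and were not analysed here.

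Genes of MHC class I presentation, which use immunoproteasome products, were lower under ventilation for 9 of 10 in WT and 7 of 10 in KO, with none called and medians of -0.15 and -0.14. Without KO SpV 1 all 10 were lower in KO, 2 of them called (20%, against 6.49% of all genes), with a median of -0.52: the peptide transporter Tap2 by -0.89 ± 0.16 (adjusted p = 0.00878) and the class I heavy chain H2-D1 by -0.62 ± 0.12 (adjusted p = 0.0129). Neither was called with the beta-actin ratio as a covariate, where 0 genes were and the ratio could not be separated from ventilation. Tap2 signals were 326, 603 and 569 in KO SpV and 326, 287 and 319 in KO HVT. As for Psmb8, KO SpV 1 lay with the ventilated arrays and the other KO SpV arrays stood above all others. The neutrophil and leukocyte sums were also lower on KO SpV 1 than on those 2 arrays. So were the sums of endothelium (8312 against 15914 and 20006) and of alveolar type I cells (14735 against 32240 and 35998). That of airway epithelium was higher (77203 against 71869 and 72239). The neutrophil sum on KO SpV 1 was above those of KO HVT. The part of these cells was not tested. Of 6 measured interferon regulators none was called with all arrays; Irf9 had 1.02 ± 0.35 for genotype in HVT (adjusted p = 0.239), with 645, 475 and 1649 on the KO HVT arrays, 1 of which was far above the others.

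The 2 genes that share only the letters of the symbol were not called in any contrast. Psmc3ip, a partner of recombinases, was dim, between 66.6 and 124. Psme3ip1, a partner of PA28 gamma, had 634, 618 and 625 in WT HVT and 749.6, 745 and 912 in KO HVT, without overlap, and a difference of 0.34 ± 0.14 (adjusted p = 0.328).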

How the data were processed

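Lung RNA on 12 Affymetrix 430A arrays was analysed from probe set intensity values, which the authors made with GCOS 1.4, per the submitters' processing notes; the other steps are not given in the sources used here. The design text names scaling to an average of 500, which the deposited intensity values do not show. Each array was therefore scaled to a 2% trimmed mean of 500 and quantile normalized, and 16 was added before log2. Probe sets were kept at a scaled signal of 100 on at least 3 arrays. Each gene took its brightest single-gene probe set, giving 9333 genes from 14554 probe sets. Symbols are those of the platform annotation. Group means of all 12 arrays were fitted with limma 3.58.1 (R 4.3.3, eBayes with an intensity trend, 8 residual and 4.44 prior degrees of freedom) for 7 contrasts, with two-sided tests and Benjamini-Hochberg adjustment over all genes. The fit was tested on simulated data. The number of arrays limits the precision. Members and lists were chosen with earlier results of these data known. Named genes were called members, the 5 smallest p-values of a contrast, the largest difference of a class and, per list, called genes or the smallest p-values. Alternatives changed scaling, pseudocount, filter, probe set, block, covariate, spread model and arrays.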

Additional observations from a re-analysis of the deposited data

How the results depend on the processing

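Counts are of the 42 measured genes called (limma, adjusted p), where the fit of all 12 arrays gave 0 in every contrast, and medians are relative to the median of all genes. Of the settings that changed a value, the cause was not tested. Psmd5 passed for the genotype average with equal medians (1 call, 3.55% of all genes), with the beta-actin ratio as covariate (1 call, 7.2%) and without KO SpV 1. Psmc2 passed there with the mean of probe sets (1 call, 3.42%), with probe sets outside the s_at and x_at classes (1 call, 3.73%, and 1 call in SpV) and without KO SpV 2 (6.26% of all genes). The covariate also gave 1 call, Psma7, for ventilation averaged over genotypes (5.41%). Array weights gave 6 calls for ventilation in KO (16.4% of all genes), 4 for genotype in SpV (17%), 1 in HVT (5.79%), 4 for the ventilation average (17.1%) and 7 for the genotype average (16.3%), but their fit stopped with a warning of premature convergence.

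Leaving out 1 array at a time gave 0 to 4 calls for ventilation in KO, 0 to 3 for its average and 0 to 1 for the genotype average, and the calls for ventilation came only from leaving out KO SpV 1. Without KO SpV 1, settings added after the data had been seen, for counts only, gave for ventilation in KO, its average and the genotype average 2, 3 and 1 calls with scaling only (7.1%, 7.5% and 6.88% of all genes) and 1, 2 and 1 with equal medians (7.59%, 7.31% and 6.67%). A replicate block gave 1, 1 and 0 (5.35% of all genes for the average of ventilation), the covariate 0, 0 and 1 (7.49%), probe sets outside the s_at and x_at classes 3, 2 and 2 (6.33%, 6.54% and 6.71%) with 1 each for genotype in SpV and in HVT, and no scaling 39, 18 and 0 (78.5% and 50% of all genes for the first and second), with 30 for genotype in HVT (65.4%) and 30 for the interaction (57.4%).

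With all arrays the replicate block gave 0 calls in every contrast. The numbers were not taken as pairs: same-numbered arrays deviated with correlations of -0.17 to 0.39, 6 of 18 over 0.1, and 6 of 12 arrays correlated best with their own number.

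The alpha ring's median for ventilation in WT was 0.18 with scaling only, 0.18 with equal medians and 0.18 with no scaling. No scaling also gave medians of -0.022 (alpha ring) for genotype in SpV, 0.0082 (all members), 0.039 (alpha ring) and -0.094 (ATPases) in HVT, and 0.0050 (all members) and 0.0037 (alpha ring) for the genotype average. There the median of all genes was itself -0.28 for ventilation in KO, -0.47 and -0.77 for genotype in SpV and in HVT, -0.31 for the interaction and -0.61 for the genotype average. Differences below 0 but above that median were those of Psmd6 (-0.013) in KO ventilation, Psma6 (-0.17) and Psmd14 (-0.14) for genotype in SpV, Psma7 (-0.54), Psmb6 (-0.54), Psmc2 (-0.50) and Psme4 (-0.50) in HVT, Psma5 (-0.074) and Psmb5 (-0.11) in the interaction, and Psmc2 (-0.34), Psma6 (-0.37) and Psmd14 (-0.41) on average. The activators' median was 0.12 for the ventilation average with the mean of probe sets and 0.13 for ventilation in KO with sets outside the s_at and x_at classes. The covariate gave -0.10 (activators) for ventilation in WT, 0.17 (alpha ring), 0.16 (ATPases) and 0.20 (activators) for genotype in HVT, 0.11 (alpha ring) for the interaction and 0.065 (ATPases) for the genotype average. Array weights gave 0.13 (alpha ring), 0.031 (ATPases) and -0.097 (activators) for genotype in SpV, 0.13 (alpha ring) and 0.27 (activators) for the interaction, and -0.12 (activators) for the genotype average.

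With 1 array left out, medians ran from 0.041 to 0.20 (alpha ring, ventilation in WT), -0.65 to -0.094 (inducible subunits, ventilation in KO), 0.13 to 0.41 (activators, ventilation in KO), 0.015 to 0.11 (all members), -0.022 to 0.11 (alpha ring) and -0.17 to 0.038 (ATPases) for genotype in SpV, and -0.098 to 0.13 (ATPases) in HVT. For the interaction they ran from 0.032 to 0.18 (alpha ring) and -0.024 to 0.18 (19S non-ATPases), and for the ventilation average from 0.099 to 0.16 (alpha ring) and 0.16 to 0.33 (activators). Over all settings, 935 values of single genes kept direction and call, 26 passed newly and 12, named above, took another sign with no scaling, and 188 counts and 1209 medians stayed within their limits while 33 and 44 did not.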
